A study of Mus musculus with 6 samples.

Results

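The ErbB receptors and their EGF family ligands were followed through osteoblast differentiation of MC3T3-E1, a preosteoblast line derived from mouse calvaria. The set holds 10 genes, the receptors Egfr, Erbb2, Erbb3 and Erbb4 and the ligands Hbegf, Areg, Ereg, Btc, Tgfa and Nrg1, chosen by gene symbol. A probe set was assigned to a gene through the transcript it was designed for, and 8 of the 10 genes were matched, among 41938 entries tested in all, where an entry is a gene or a probe set without a name. Erbb4 and Nrg1 matched no probe set and were not analysed here.

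The differentiated group was kept for 15 days in complete medium with 10 mM glycerol-2-phosphate and 50 µg/mL ascorbic acid, while undifferentiated cells had complete medium without these supplements. Complete medium was alpha MEM with 10% fetal bovine serum. Both groups received ethanol vehicle for 24 h and came from passages 5 to 12 of the line. Each group had 3 single-colour NimbleGen arrays of Cy3-labelled RNA, described by the submitters as biological triplicates. MC3T3-E1 is a single cell line, so the replicates do not sample different animals, and supplements, time in culture and differentiation change together between these groups.

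The ErbB receptors are tyrosine kinases that pair when a ligand binds and signal through the RAS and ERK route and the PI3K and AKT route. The ligands are made as membrane-anchored precursors and are released by ADAM proteases. ERBB2 has no known ligand and serves as a partner, and ERBB3 has little kinase activity of its own. In the mouse osteoblast lineage EGFR signalling is known for sustaining progenitor growth and restraining late differentiation.

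Promoter sequences were available for 6 of the 10 genes, Egfr, Erbb2, Erbb4, Areg, Btc and Tgfa, as windows from 250 bases before to 50 bases after the annotated start (RefSeq, GRCm38.p6). Both strands were searched for the RUNX motif TGTGGT, the AP-1 motif TGANTCA and the cAMP response element TGACGTCA, since the study concerned RUNX2 and since AP-1 and cAMP act downstream of growth factor and hormone receptors. The RUNX motif stood in 0 of these 6 windows and in 16.8% of 32851 windows of the same length, and the AP-1 motif in 0 of 6 and 7.81%. The cAMP response element stood in 1 of 6 and in 1.79% of all windows. That window belongs to Areg (chr5:91139349-91139648, plus strand), and the element, in capitals, begins 61 bases before the start. The Btc window (chr5:91402945-91403244, minus strand) is shown beside it because Btc is a ligand gene of the same chromosome that fell in the arrays, and it holds none of the 3 motifs, so it has no capitals. A match of letters is a description of the window and not evidence of binding.
Areg: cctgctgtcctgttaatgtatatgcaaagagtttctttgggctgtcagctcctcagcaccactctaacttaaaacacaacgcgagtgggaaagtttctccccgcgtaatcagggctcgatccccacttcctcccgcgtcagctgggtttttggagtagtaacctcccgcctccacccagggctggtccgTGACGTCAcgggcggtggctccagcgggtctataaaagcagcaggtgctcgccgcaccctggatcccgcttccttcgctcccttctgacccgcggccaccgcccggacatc
Btc: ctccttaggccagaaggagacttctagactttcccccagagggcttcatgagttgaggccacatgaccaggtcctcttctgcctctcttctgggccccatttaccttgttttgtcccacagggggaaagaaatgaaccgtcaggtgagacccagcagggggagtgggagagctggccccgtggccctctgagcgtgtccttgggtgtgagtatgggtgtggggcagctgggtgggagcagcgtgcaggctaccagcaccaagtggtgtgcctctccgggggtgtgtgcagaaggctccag

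Array values are given as log2 intensity after quantile normalization of the 6 arrays. The brightness of different probe sets depends on their probes, so levels are compared between groups for each gene and not between genes. Random-sequence control probes, which set the background, read 6.69 to 6.73 in differentiated and 6.73 to 6.80 in undifferentiated arrays. Undifferentiated replicate 3 stood farthest from its group, and its root mean square deviation over all entries was 0.208, the rest ranging from 0.0820 to 0.154. All differentiated arrays shared one code in their scanner image names and all undifferentiated arrays another. What this code stands for is not stated, and whatever it marks cannot be told apart from group. Of 8 osteoblast markers 4 rose (Alpl, Sp7, Bglap and Pth1r), none fell and 4 did not pass (Runx2, Spp1, Col1a1 and Ibsp). Alpl, the alkaline phosphatase of mineralizing osteoblasts, was 8.10-fold higher in differentiated cells (limma, adjusted p = 4.87e-07), and Runx2, the transcription factor of the lineage, read 12.48 in differentiated and 12.46 in undifferentiated cells. Of 7 epithelial markers, genes of cells that commonly use these ligands, Cdh1 and Krt14 rose, with list means of 9.35 to 9.50 in differentiated and 8.97 to 9.01 in undifferentiated arrays. Of 4 Schwann cell markers Mbp rose, with list means of 10.28 to 10.42 in differentiated and 9.53 to 9.84 in undifferentiated arrays. Of 5 adipocyte markers Cebpa rose and Adipoq fell, with list means of 9.41 to 9.44 in differentiated and 9.16 to 9.36 in undifferentiated arrays. None of 4 macrophage markers passed (list means 8.02 to 8.07 in differentiated and 7.92 to 7.97 in undifferentiated arrays), nor any of 5 chondrocyte markers (8.66 to 8.74 in differentiated and 8.59 to 8.71 in undifferentiated arrays). Each chondrocyte marker is set beside the random-sequence probes and not against the other markers. The cartilage collagen gene Col2a1 read 6.88 to 6.92 in differentiated and 6.75 to 6.80 in undifferentiated arrays, close to the random-sequence probes. Matn1 averaged 6.87 in differentiated and 6.85 in undifferentiated cells, also close to them. Sox9 (12.25 and 12.19), Acan (9.83 and 9.72) and Col9a1 (7.65 and 7.72) were above these probes on every array. The part of other cell types in the results below was not tested.

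Differentiated cells carried less mRNA for the ligands Hbegf, by 1.44-fold, and Btc, for which the size of the fall is uncertain because 1 of 3 differentiated arrays read it above the random-sequence probes. No receptor and no other ligand of the set passed the test. In RNA from whole cultures, fewer cells that express a gene and less of its RNA per cell cannot be told apart. Of the 8 measured genes, 2 were called lower, 0 higher and 6 neither way at an adjusted p under 0.05 (limma, Benjamini-Hochberg over all entries), and 3 had an unadjusted p under 0.05. The 2 calls are 25.0% of the 8 genes, against 17.0% of all 41938 entries, of which 7.97% were called higher and 9.04% lower. For 8 genes these shares differ by less than 1 gene, so the count is near the share of all entries. The share among named genes alone was not counted. The median log2 fold change was -0.17 over the 8 genes and 0.00 over all entries, and the median size of a change was 0.20 against 0.16.

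**Figure D1:**
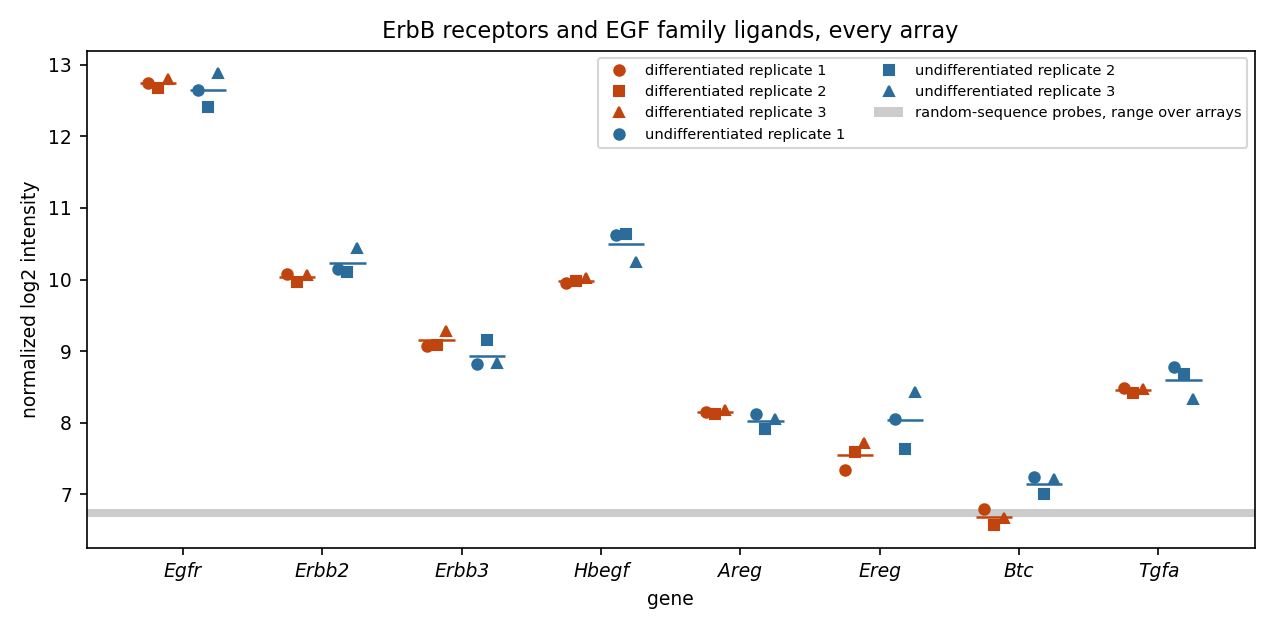
Normalized log2 intensity of the 8 measured genes on every array, with differentiated arrays left of undifferentiated ones, short lines at group means (n = 3 each) and a grey band for the random-sequence probes (6.69 to 6.80). Hbegf and Btc are lower on every differentiated array than on any undifferentiated array, and differentiated Btc lies within and around the grey band. Erbb2, which did not pass, is likewise lower on every differentiated array, and the groups of Areg meet at their edges. The share of all entries without overlap was not counted.

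None of the 3 measured receptors passed. Egfr, the receptor for most of these ligands, was represented by 2 probe sets made for different transcripts. The brighter one (NM_007912) read 12.74, 12.68 and 12.80 in differentiated replicates 1, 2 and 3, against 12.65, 12.41 and 12.88 in undifferentiated replicates 1, 2 and 3. The differentiated arrays lay inside the range of the undifferentiated ones, and the log2 fold change was 0.09 ± 0.13 (SE, n = 3 per group, limma adjusted p = 0.69). Its 95% confidence interval, from -0.20 to 0.38, leaves room for a rise of at most 1.30-fold or a fall of at most 1.15-fold. The second probe set (NM_207655) read 11.48, 11.38 and 11.63 in differentiated and 11.54, 11.50 and 11.71 in undifferentiated arrays, which is -0.08 as a log2 fold change (95% confidence interval -0.33 to 0.16). The 2 Egfr probe sets thus had opposite signs, and neither passed.

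Erbb2, the ligandless partner receptor, read 10.08, 9.97 and 10.06 in differentiated and 10.15, 10.10 and 10.44 in undifferentiated arrays. The groups did not overlap, yet the gap between them was small beside the high value of undifferentiated replicate 3. The log2 fold change was -0.19 ± 0.11 (SE, limma adjusted p = 0.291), with a 95% confidence interval from -0.45 to 0.06. Erbb3, a receptor for neuregulins, read 9.07, 9.09 and 9.28 in differentiated and 8.82, 9.16 and 8.83 in undifferentiated arrays. Undifferentiated replicate 2 lay above the other 2 arrays of its group and within the differentiated range. Its log2 fold change was 0.21 (95% confidence interval -0.07 to 0.49, limma adjusted p = 0.289). For these receptors the intervals allow changes of at most 1.37-fold and 1.40-fold.

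**Figure D2:**
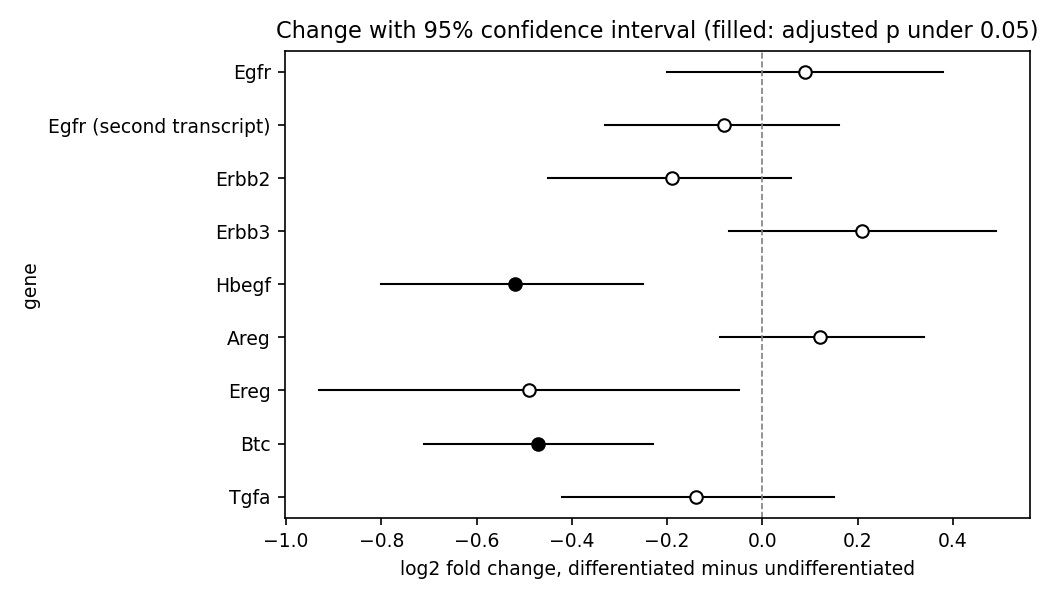
Log2 fold change, differentiated minus undifferentiated, with 95% confidence intervals for the 9 probe sets of the 8 genes (limma, n = 3 per group). The intervals of Hbegf, Btc and Ereg lie below 0, and only the filled points of Hbegf (-0.52) and Btc (-0.47) passed after adjustment.

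Hbegf, the heparin-binding ligand of EGFR and ERBB4, was well above the random-sequence probes on all 6 arrays. Its deposited intensities were 999, 1007 and 1046 units in differentiated replicates 1, 2 and 3, against 1541, 1558 and 1255 units in undifferentiated replicates 1, 2 and 3. On the normalized log2 scale these were 9.95, 9.98 and 10.02 in differentiated and 10.62, 10.63 and 10.25 in undifferentiated arrays. The differentiated arrays were close together, and undifferentiated replicate 3 lay between them and the other undifferentiated arrays without overlap. Hbegf averaged 9.98 ± 0.04 in differentiated and 10.50 ± 0.22 in undifferentiated cells (SD, n = 3 each), a log2 fold change of -0.52 ± 0.12 (SE, 95% confidence interval -0.80 to -0.25, limma adjusted p = 0.0192).

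The fall of Hbegf was larger without undifferentiated replicate 3, at -0.63 (limma adjusted p = 0.00122). The call was lost without differentiated replicate 1 or 2 (adjusted p = 0.0692 and 0.0835) and without undifferentiated replicate 1 or 2 (adjusted p = 0.0713 and 0.0634), at log2 fold changes of -0.46 to -0.52. Its sign was the same in each of the 19 alternatives run. Several of them, such as a stricter threshold or a replicate block, leave the log2 fold change as it was and cannot turn the sign.

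Btc encodes betacellulin, which binds EGFR and ERBB4. It was close to background on these arrays. Deposited intensities were 114, 96 and 100 units in differentiated replicates 1, 2 and 3, against 156, 130 and 139 units in undifferentiated replicates 1, 2 and 3. Normalized values were 6.79, 6.57 and 6.67 in differentiated arrays, where 1 of 3 exceeded the random-sequence probes of its own array, and 7.24, 7.0 and 7.21 in undifferentiated arrays, where all 3 did. The groups did not overlap, and the log2 fold change was -0.47 ± 0.11 (SE, n = 3 per group, 95% confidence interval -0.71 to -0.23, limma adjusted p = 0.0189). Undifferentiated Btc lay 0.38 above the random-sequence probes on the log2 scale and differentiated Btc 0.04 below them (-0.04), so the size of the fall is uncertain. The call was lost without differentiated replicate 2 or 3 (adjusted p = 0.102 and 0.0553) or undifferentiated replicate 1 (adjusted p = 0.0698). Among the 8 genes, leaving out differentiated replicate 2 or undifferentiated replicate 1 left 0 called, and leaving out differentiated replicate 1 or 3 left 1.

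**Figure D3:**
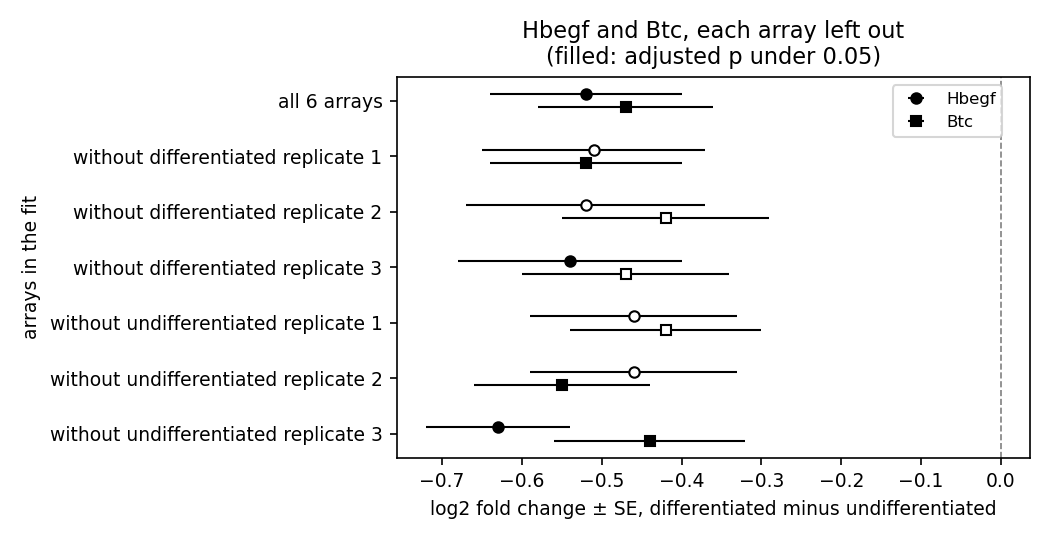
Log2 fold change ± SE of Hbegf (circles) and Btc (squares) with all 6 arrays and with each array left out in turn. All values lie between -0.63 and -0.42, while the filled points, which passed at an adjusted p under 0.05, thin out when an array is dropped.

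Ereg, which encodes epiregulin, had a wider spread than Hbegf and did not pass. It read 7.34, 7.59 and 7.72 in differentiated and 8.06, 7.63 and 8.43 in undifferentiated arrays. On the log2 scale these averaged only 0.83 and 1.26 above the random-sequence probes, which limits how well the size of the change is known. Undifferentiated replicate 2 lay within the differentiated range, and the undifferentiated SD was 0.40. The log2 fold change was -0.49 ± 0.19 (SE, n = 3 per group), with an unadjusted p of 0.0325 that did not pass (limma adjusted p = 0.124). Without undifferentiated replicate 2 the log2 fold change was -0.69 and passed (adjusted p = 0.0315), so in that setting Ereg and Btc were the 2 called genes.

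Areg, which encodes amphiregulin, and Tgfa, which encodes transforming growth factor alpha, both bind EGFR. Areg read 8.15, 8.12 and 8.18 in differentiated and 8.12, 7.91 and 8.05 in undifferentiated arrays. The groups met at their edges, and the log2 fold change was 0.12 (95% confidence interval -0.09 to 0.34, limma adjusted p = 0.428), a window that allows at most 1.26-fold. Tgfa read 8.49, 8.42 and 8.47 in differentiated and 8.78, 8.68 and 8.33 in undifferentiated arrays. Undifferentiated replicate 3 was the lowest of the 6, and the log2 fold change was -0.14 (95% confidence interval -0.42 to 0.15, limma adjusted p = 0.527). With array weights, a setting that gives deviating arrays less influence, Tgfa (-0.28, adjusted p = 0.0191) and Ereg (-0.39, adjusted p = 0.0215) were called lower as well. That setting called 4 of the 8 genes, but also 15846 of all 41938 entries, against 7135 without weights.

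The named genes whose normalized profile over the 6 arrays was most like that of Hbegf were Taf10, a subunit of the general transcription factor TFIID, Krtcap2, a subunit of the oligosaccharyltransferase, and Pde1c, a calmodulin-dependent phosphodiesterase. Likeness was the root mean square difference of mean-centred log2 values, which was 0.0255, 0.0335 and 0.0388 for these genes. Because they were chosen by this likeness, all 3 shared the lower value of undifferentiated replicate 3 within its group. Taf10, for example, read 12.17, 12.15 and 12.21 in differentiated and 12.79, 12.87 and 12.44 in undifferentiated arrays. Pde1c lay only 0.87 above the random-sequence probes on the log2 scale in differentiated cells. Its log2 fold change was -0.51, but -0.32 with its probe sets averaged, where it did not pass (limma adjusted p = 0.145).

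The genes around the receptors were described from lists chosen by role, each as counts beside the 17.0% called among all entries. Those entries include 24607 probe sets without a name, whereas the lists hold named genes only. The share called among the 17331 named genes was not counted, so a list above 17.0% is not thereby above named genes in general. Of the other ligands Egf, Epgn, Nrg3 and Nrg4, none of 4 passed. For Nrg4, a ligand of ERBB4, the log2 fold change was 0.21 (95% confidence interval -0.01 to 0.43). For Egf, the founding ligand of the family, it was -0.04 (-0.26 to 0.19).

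Proteases and regulators of ligand release moved upward where they passed. Of 12 measured genes 4 rose, none fell and 8 did not pass (33.3% called), with a median log2 fold change of 0.20. Adam19, a protease that can cleave neuregulin precursors, read 12.19, 12.19 and 12.22 in differentiated and 10.54, 10.55 and 11.05 in undifferentiated arrays. Its groups lay far apart, a 2.81-fold rise (log2 fold change 1.49 ± 0.14 SE, limma adjusted p = 0.000256). Adam12, which can cleave the HB-EGF precursor, rose 1.81-fold, to 11.29 ± 0.10 in differentiated cells, against 10.43 ± 0.19 in undifferentiated cells (SD, n = 3 each). Timp3, an inhibitor of ADAM17 and of matrix metalloproteinases, rose 1.5-fold. Adam17, the main protease for several EGFR ligands, read 11.33, 11.38 and 11.45 in differentiated and 10.94, 10.81 and 11.18 in undifferentiated arrays. Adam17 was called 1.33-fold higher (log2 fold change 0.41, limma adjusted p = 0.0408). That call, though not the sign, was lost without any 1 array other than undifferentiated replicate 3, at log2 fold changes of 0.33 to 0.44, and also with the deposited values (adjusted p = 0.122) or median centring (adjusted p = 0.170) in place of quantile normalization.

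Among 9 surface and scaffold partners of ligands and receptors, 1 rose, 2 fell and 6 did not pass (33.3% called; median log2 fold change -0.08). Cd44, whose heparan sulfate forms can present HB-EGF, was lower at 13.37, 13.35 and 13.49 in differentiated arrays, against 14.17, 13.93 and 14.01 in undifferentiated arrays, a 1.54-fold fall (limma adjusted p = 0.00386). Erbin, which binds ERBB2, fell 1.54-fold, with values of 10.97, 11.16 and 11.47 in differentiated and 11.89, 11.70 and 11.87 in undifferentiated arrays. Cd9, a tetraspanin that associates with the HB-EGF precursor, rose 1.28-fold (limma adjusted p = 0.0405). The call of Cd9 was lost without any 1 array other than undifferentiated replicate 3 and with the deposited values or median centring, and that of Erbin without differentiated replicate 1 or 2 or undifferentiated replicate 1. In this list 1 gene was called without any single one of those last 3 arrays, and 2 without differentiated replicate 3 or undifferentiated replicate 2.

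**Figure D4:**
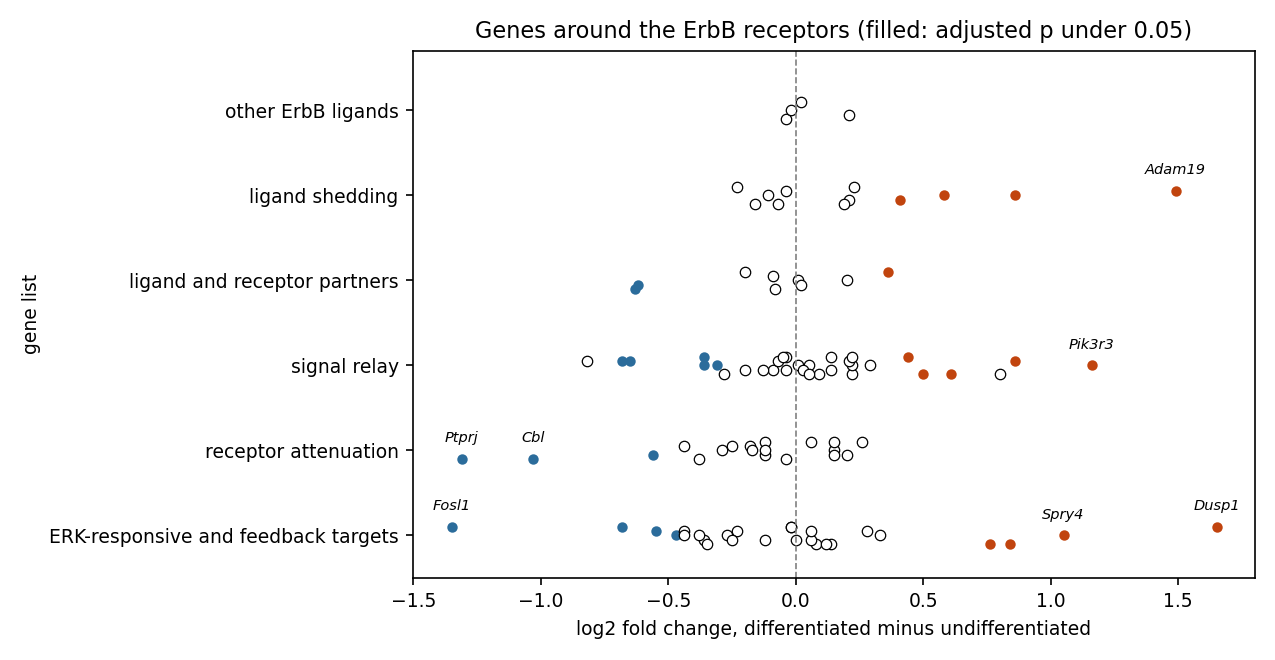
Log2 fold change, differentiated minus undifferentiated, of every measured gene in the 6 lists around the ErbB receptors, 1 point a gene. Filled points passed at an adjusted p under 0.05 (limma), red for higher and blue for lower, and genes that passed with a change beyond 1 are named, from -1.35 for Fosl1 to 1.65 for Dusp1.

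Genes that relay the receptor signal moved in both directions, 5 higher and 5 lower of 32 measured (31.2% called), with a median log2 fold change of 0.04. The regulatory subunits of PI3K differed from one another in sign. Pik3r3 rose 2.24-fold, at 12.49, 12.46 and 12.42 in differentiated and 11.29, 11.40 and 11.19 in undifferentiated arrays (limma adjusted p = 0.000113), and Pik3r2 rose 1.42-fold. Pik3r1, which encodes p85 alpha, fell 1.60-fold, at 11.06, 10.99 and 11.07 in differentiated and 11.57, 11.81 and 11.78 in undifferentiated arrays (limma adjusted p = 0.00242). The call of Pik3r2 was lost without differentiated replicate 1 or 2 (adjusted p = 0.0538 and 0.0729).

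The transcription factor gene Stat5a rose 1.81-fold, to 12.70 ± 0.08 in differentiated cells, against 11.84 ± 0.07 in undifferentiated cells (SD, n = 3 each). Shc1, the adaptor that couples the receptors to RAS, rose 1.53-fold (limma adjusted p = 0.00269), and the RAS gene Hras fell 1.57-fold (limma adjusted p = 0.00473). The count of 10 called relay genes was 6 without differentiated replicate 1, 5 without differentiated replicate 2 and 7 to 11 without each other array. Without differentiated replicate 1 or 2, entries called in all also fell, from 7135 to 4235 and 3134.

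Of 19 measured genes that attenuate or sort the receptors, 3 fell, none rose and 16 did not pass. The 15.8% called was near the 17.0% of all entries, and the median log2 fold change was -0.12. Ptprj, a receptor phosphatase that acts on EGFR, read 9.25, 9.30 and 9.21 in differentiated and 10.65, 10.28 and 10.76 in undifferentiated arrays, a 2.47-fold fall (log2 fold change -1.31 ± 0.13 SE, limma adjusted p = 0.000356). Cbl, the ubiquitin ligase that marks activated EGFR for degradation, read 11.30, 11.25 and 11.41 in differentiated and 12.26, 12.46 and 12.33 in undifferentiated arrays. The groups were separate and the fall was 2.04-fold (limma adjusted p = 0.000242). Ptpn1, a phosphatase of the endoplasmic reticulum that dephosphorylates internalized receptors, fell 1.48-fold (limma adjusted p = 0.00650). These 3 calls held without each array in turn.

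Genes known to respond to ERK signalling, its feedback inhibitors included, went both ways, with 4 higher, 4 lower and 19 not passing of 27 (29.6% called; median log2 fold change -0.02). Dusp1, a phosphatase that switches off MAP kinases, read 10.74, 10.86 and 10.95 in differentiated and 8.99, 9.17 and 9.43 in undifferentiated arrays, a 3.14-fold rise (limma adjusted p = 8.24e-05). Spry4, an inhibitor of receptor tyrosine kinase signalling, rose 2.07-fold, to 9.43 ± 0.12 in differentiated cells, against 8.38 ± 0.21 in undifferentiated cells (SD, n = 3 each). The immediate early genes Fos and Atf3 rose 1.79-fold and 1.70-fold.

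The AP-1 subunit genes of this list were split in sign. Fosl1 read 9.64, 9.53 and 9.64 in differentiated and 10.95, 11.08 and 10.84 in undifferentiated arrays, a 2.56-fold fall (limma adjusted p = 6.14e-05). Junb averaged 10.07 ± 0.14 in differentiated and 10.75 ± 0.18 in undifferentiated cells (SD, n = 3 each), a 1.60-fold fall. The 8 calls of this list numbered 7 to 8 without each array other than undifferentiated replicate 3, and 12 without that array.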

How the data were processed

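The deposited intensity values, on a linear scale, were made by the authors with RMA, per the submitters' processing notes. For the RMA program and the array design, version and build are not given in the sources used here. All 42586 probe sets and 1 row of random-sequence probes were put on the log2 scale and quantile normalized over the 6 arrays, since sorted arrays differed by up to a median of 0.135. Probe sets were named through RefSeq accessions (17849) or symbols and synonyms (130), and the brightest probe set stood for a gene. The 2 groups were fitted without covariates in limma 3.58.1 (R 4.3.3, two-sided), with Benjamini-Hochberg adjustment over 41938 entries, and the code was tested on simulated data. The number of arrays limits the precision.

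Replicates carry the numbers of the sample titles. The deposited files of differentiated replicates 1 and 2 bear each other's number, and the series table holds these columns the other way round, which does not touch group comparisons. Same-numbered arrays correlated at 0.334, -0.145 and 0.460 in their deviations by titles, and at -0.0101, 0.428 and 0.460 by file names, so numbers were not treated as pairs.

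The genes and lists were chosen with earlier results of these data known. All 10 genes are named, with up to 6 called genes of each list by size of change, or the 2 largest where none was called. The promoter of Areg was chosen after motif matches were seen. Marker genes serve as checks.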

Additional observations from a re-analysis of the deposited data

How the results depend on the processing

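Hbegf and Btc kept a negative sign in each of the 19 and 18 alternatives they had, with log2 fold changes from -0.63 to -0.46 and from -0.58 to -0.33. Several alternatives, such as a stricter threshold, a replicate block or the series table, leave the log2 fold change as it was. The sign could not turn in those. None of the 8 genes was called higher in any alternative. The 2 called lower became 1 with entries under the 25th percentile left out, which removes Btc, 4 with array weights and 0 at an adjusted p under 0.01. Leaving out those entries also removes Areg and Ereg. Array weights gave 18 called relay genes, 9 attenuation genes and 18 ERK-responsive genes, and called 15846 entries in all against 7135, and the cause was not tested. An adjusted p under 0.01 left 5 relay genes and 1 partner gene. Whether same-numbered arrays share more than a label is not settled here (3 of 6 arrays correlated best with their own number by titles). With a replicate block Ereg was called lower too, at the same log2 fold change of -0.49 (limma adjusted p = 0.037 by titles and 0.00643 by file names). With the block by titles 3 of the 8 genes were called lower and 5 attenuation genes were called, and by file names 3, 6 and, among ERK-responsive genes, 13, with 8984 and 10493 entries called in all. Leaving out each array in turn gave 0 to 0 genes of the set higher and 0 to 2 lower. The same settings gave 0 to 0 other ligands, 3 to 4 genes of ligand shedding, 1 to 3 partners, 5 to 11 relay genes, 3 to 3 attenuation genes and 7 to 12 ERK-responsive genes. Entries called in all ranged from 3134 without differentiated replicate 2 to 9470 without undifferentiated replicate 3. Signal over background limits Btc most, since differentiated cells lay at the random-sequence probes.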
